A study of Mus musculus with 40 samples.

Results

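The genes described here encode 8 receptors for noradrenaline, adrenaline and endothelins that were listed by name: the alpha-1 receptors *Adra1a*, *Adra1b* and *Adra1d*, the alpha-2 receptors *Adra2a* and *Adra2c*, the beta-1 receptor *Adrb1*, and the endothelin receptors *Ednra* and *Ednrb*. They are 8 of the 24060 rows of a table of read counts from mouse striatum. *Adra2b*, a further alpha-2 receptor gene, is given beside them. RNA was measured in 40 libraries that fall into 10 groups of 4. RiboTag is a method in which an adeno-associated virus (AAV) makes chosen cells carry the ribosomal protein Rpl22 with an HA tag, so that an immunoprecipitation (IP) of the tag enriches RNA on the ribosomes of these cells, while the input is RNA of the whole lysate.

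In the Control cohort (C57/BL6NTac mice, AAV at 6 weeks of age), the input and IP came from the same animals. The labels do not name its AAV, which was taken as the astrocyte RiboTag with the GfaABC1D promoter from the strain and the methods of the study. In the neuron cohort (C57/BL6NTac mice, AAV at 6 weeks), the tag was driven by the neuronal hSYN1 promoter, and input and IP were paired here by the number in the sample titles. The SAPAP3 cohort had input and IP of WT mice (C57/BL6J) and of SAPAP3 KO mice, which carry a *Dlgap3* deletion on the same background, with AAV at 4.5 months and no tagged cell type in the labels. Bulk striatal RNA was taken from WT and SAPAP3 KO mice (strain given as C57/BL6NTac) without a RiboTag step, and 1 animal number is listed there under both genotypes. The study compared IP with input to find RNA of the tagged cells, and KO with WT for the effect of losing SAPAP3, a scaffold protein of synapses whose deletion is used as a mouse model of obsessive-compulsive disorder.

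All members of both families are G-protein-coupled receptors. Alpha-1 and endothelin receptors couple mainly to Gq, phospholipase C beta and calcium release, alpha-2 receptors to Gi and inhibition of adenylyl cyclase, and beta receptors to Gs and cyclic AMP. Astrocytes are known to answer noradrenaline with calcium signals, and EDNRB is a known receptor of astrocytes, while EDNRA is best known from the smooth muscle of vessels.

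The libraries held between 23438112 and 84109800 counts. The summed level of 10 astrocyte markers went from 3430 to 3630 CPM (TMM-scaled counts relative to library size) in Control input to 35700 to 39000 CPM in Control IP, and all 10 were called higher there and in the IP of both SAPAP3 genotypes. In neuron IP the sum of 9 neuron markers was 8730 to 9050 CPM, against 5350 to 5700 CPM in its input. Markers of the other cell type remained in each IP. The astrocyte sum was 3710 to 4070 CPM in neuron IP and 5620 to 5980 CPM in neuron input, with 1 of 10 markers called lower. The neuron sum was 4680 to 4990 CPM in Control IP and 5820 to 6180 CPM in Control input, with 2 of 9 called lower. KO and WT libraries of the same kind did not overlap in *Dlgap3*, the deleted gene, although reads remained: KO input held 158.3 to 193.2 CPM and WT input 358.3 to 468.6 CPM. The input of WT mouse 1 of the SAPAP3 cohort and the bulk libraries of WT mice 2 and 3 stood apart in several of these receptors, and values without WT mouse 1 are given beside the results that it moved most. *Xist*, a transcript of female cells, had 0 or 1 count in the Control libraries and 1843 to 14313 counts in the neuron cohort, so the sex of the animals and the cohort cannot be told apart between these 2 cohorts. *Xist* was also high in SAPAP3 WT input 4 (5513 counts), SAPAP3 KO input 1 (7418 counts) and bulk WT 3 (10787 counts), so these groups were mixed in sex. The bulk KO libraries held 0 to 2 counts. In bulk tissue and input, fewer cells of a type and less RNA per cell cannot be told apart.

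**Figure D1:**
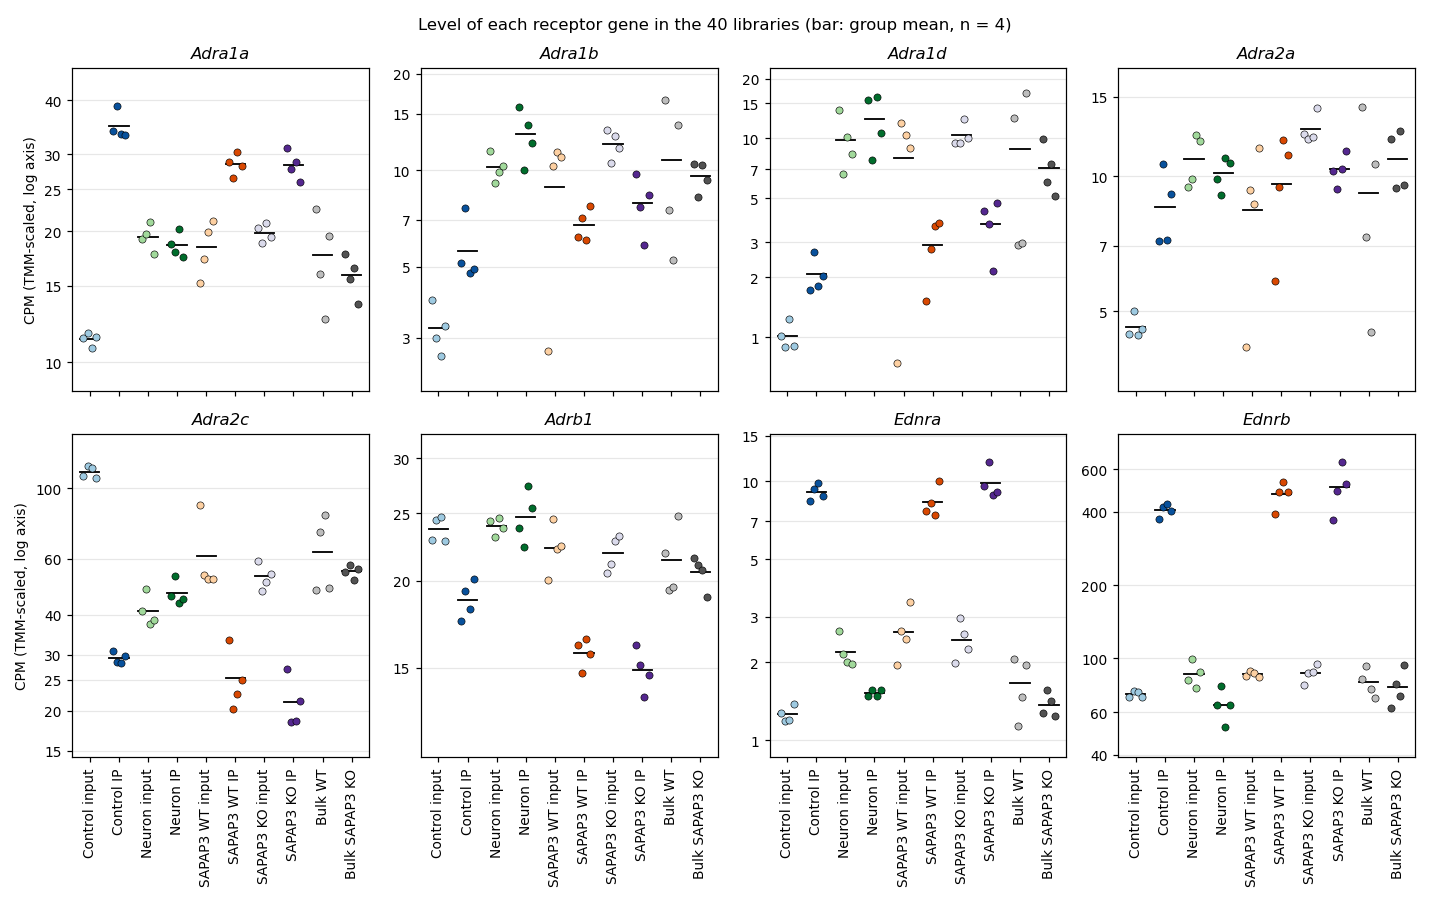
CPM (log axis) of the 8 receptor genes in each of the 40 libraries, with 1 point per library and a bar at the mean of each group of 4. *Ednrb* and *Ednra* stand high in the 3 IP groups other than neuron IP, and *Adra2c* is highest in the 4 Control input libraries, at 107.5 to 117.6 CPM.

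Compared per length of merged RefSeq exons, *Ednrb* had the highest level of the 8 in Control IP, at a mean of 92.6 FPKM (CPM divided by exon length in kilobases). *Adra2c* followed at 9.15 FPKM and *Adrb1* at 6.19 FPKM. *Adra1a* depends on the length used: its merged exons span 15887 bp over all RefSeq transcripts and 4871 bp over the 4 curated ones, which gives 2.19 or 7.16 FPKM in Control IP. In neuron IP, *Ednrb* and *Adra2c* both had a mean of 14.7 FPKM, *Adrb1* had 8.14, *Adra1d* 4.80, *Adra1b* 3.33, *Adra2a* 2.72 and *Ednra* 0.418 FPKM. The adrenergic receptor with the highest level per length was therefore *Adra2c* in both. These are levels in the IP and not of the tagged cells alone. *Adra2c* was 4.03-fold lower in Control IP than in its input, and *Ednrb* was 1.35-fold lower in neuron IP than in its input. The part of RNA from other cells in these levels was not tested.

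*Ednrb* and *Ednra*, the receptors of endothelins, were the members with the strongest enrichment in Control IP. *Ednrb* lies on chr14:103814615-103844508 (minus strand, 8 merged exons) and *Ednra* on chr8:77663029-77724452 (minus strand, 8 merged exons), in mm10. The 250 bases before the annotated start are printed here for both and for *Adra2c*, the member that fell most in Control IP, because these genes moved furthest and in opposite directions. The sequences are from RefSeq on GRCm38.p6, and 6 of the 8 members had such a window. Capitals mark TGACG, the core of the cyclic AMP response element, on either strand.
Ednrb, chr14:103843702-103843951, minus strand: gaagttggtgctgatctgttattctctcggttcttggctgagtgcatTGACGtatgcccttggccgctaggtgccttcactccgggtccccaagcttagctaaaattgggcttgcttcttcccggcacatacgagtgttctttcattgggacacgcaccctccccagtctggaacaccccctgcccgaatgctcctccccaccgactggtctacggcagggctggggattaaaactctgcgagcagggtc
Ednra, chr8:77724453-77724702, minus strand: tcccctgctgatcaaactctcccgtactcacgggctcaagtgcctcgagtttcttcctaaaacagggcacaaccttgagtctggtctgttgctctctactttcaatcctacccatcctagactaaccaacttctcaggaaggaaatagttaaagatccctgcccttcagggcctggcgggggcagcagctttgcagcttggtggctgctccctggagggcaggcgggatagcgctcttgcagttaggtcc
Adra2c, chr5:35278316-35278565, plus strand: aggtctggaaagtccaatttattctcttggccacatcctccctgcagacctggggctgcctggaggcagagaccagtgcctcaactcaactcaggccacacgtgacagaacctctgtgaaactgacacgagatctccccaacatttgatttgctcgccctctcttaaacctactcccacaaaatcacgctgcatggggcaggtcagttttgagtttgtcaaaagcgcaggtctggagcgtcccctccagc

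The match in *Ednrb* lies 203 to 199 bases before the start, and 17.8% of the 32851 windows of this length in the RefSeq table hold TGACG on either strand. GGGCGG (the GC box, in 32.7% of windows), TTGGCA (an NFI motif, 12.3%), ACAATG (a SOX motif, 10.7%) and TTCNNNGAA (the STAT motif, 7.02%) had no match in these 3 windows on either strand. The *Ednrb* window lies inside the body of a longer transcript of the same gene and holds no exon bases, and in the *Ednra* window 109 bases are exon of a lncRNA gene on the other strand. GC content was 56.8% in *Ednrb*, 54.8% in *Ednra* and 53.6% in *Adra2c*.

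In the order of replicates 1 to 4, *Ednrb* was at 69.14, 73.52, 72.46 and 69.36 CPM in Control input and at 373.8, 418.5, 430.1 and 402.4 CPM in Control IP. The 2 groups did not overlap, and each animal had 5.41 to 5.94 times more *Ednrb* in its IP than in its input. The log2 fold change was 2.44 (SE 0.0455, 5.44-fold, edgeR adjusted p = 3.76e-12). In neuron input *Ednrb* was at 81.36, 98.99, 75.59 and 88.0 CPM and in neuron IP at 64.52, 76.76, 52.31 and 64.42 CPM. The ranges overlapped, yet all 4 pairs were lower in the IP. The change was -0.43 on the log2 scale (1.35-fold lower, edgeR adjusted p = 0.00654), which is under the fold limit of 1 on the log2 scale used for a call.

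*Ednra* was at 1.275, 1.183, 1.198 and 1.376 CPM in Control input and at 8.361, 9.301, 9.807 and 8.736 CPM in Control IP. It rose 6.86-fold (log2 2.78, SE 0.101, edgeR adjusted p = 4.08e-10), with no overlap between groups. In neuron input it was at 2.647, 2.144, 2.005 and 1.977 CPM and in neuron IP at 1.481, 1.56, 1.488 and 1.564 CPM. These ranges did not overlap either, in the opposite direction, with a change of -0.54 (1.45-fold lower, edgeR adjusted p = 0.00289) that is under the fold limit. An exon of a gene on the opposite strand overlaps 24 bp of the *Ednra* exons, and another opposite-strand gene overlaps 85 bp of the *Adra1d* exons.

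The enrichment itself differed between the neuron and Control cohorts for both endothelin receptors, by -3.32 for *Ednra* (SE 0.149, edgeR interaction, adjusted p = 3.31e-12) and by -2.87 for *Ednrb* (SE 0.131, edgeR interaction, adjusted p = 3.81e-12). In the SAPAP3 cohort, *Ednrb* was at 84.24, 88.25, 87.27 and 83.8 CPM in WT input and 391.7, 483.8, 532.3 and 482.2 CPM in WT IP. In KO mice it was at 77.46, 87.18, 87.44 and 94.76 CPM in input and 369.8, 487.9, 644.2 and 522.0 CPM in IP. *Ednrb* rose in the IP of both genotypes, 5.36-fold in WT (log2 2.42, SE 0.0914, edgeR adjusted p = 1.76e-07) and 5.86-fold in KO (log2 2.55, SE 0.148, edgeR adjusted p = 1.22e-07). The WT enrichment minus that of the Control cohort was -0.00 on the log2 scale (95% interval -0.21 to 0.21).

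*Ednra* also rose in these IP groups. It was at 1.944, 2.633, 2.455 and 3.409 CPM in WT input and 7.66, 8.249, 7.425 and 10.03 CPM in WT IP, and at 1.987, 2.974, 2.574 and 2.248 CPM in KO input and 9.562, 11.81, 8.853 and 9.085 CPM in KO IP. Input and IP did not overlap in either genotype, with 3.11-fold more in WT IP (edgeR adjusted p = 2.38e-05) and 4.02-fold more in KO IP (edgeR adjusted p = 6.23e-07). The enrichment of *Ednra* in WT mice was below that in the Control cohort by 1.12 on the log2 scale (2.18-fold, edgeR interaction, adjusted p = 0.00148). Beside this difference the level in input was higher in the SAPAP3 WT mice, 2.61 ± 0.608 CPM (SD, n = 4), than in Control input, 1.26 ± 0.0886 CPM (SD, n = 4).

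Markers of other cells that could carry these receptors moved with the IP. The sum of 10 mural cell markers, genes of vessel smooth muscle and pericytes, was 138 to 147 CPM in Control input and 182 to 190 CPM in Control IP, where 3 markers rose (*Notch3*, *Pdgfrb* and *Acta2*) and 6 fell, among them *Higd1b* at -3.03 and *Kcnj8* at -2.16 on the log2 scale. The sum of 9 ependymal markers was 27.3 to 38.1 CPM in Control input and 92.2 to 181 CPM in Control IP, and all 9 rose there and in the IP of both SAPAP3 genotypes. The sum of 10 endothelial markers went from 135 to 174 CPM down to 20.9 to 22.8 CPM. No marker of these lists was at 0 in a whole group, and the part of these cells in the receptor values was not tested.

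*Adra1a*, the alpha-1A receptor, lies on chr14:66635251-66771240 (plus strand, 5 merged exons) and was the adrenergic receptor with the strongest enrichment in Control IP. It was at 11.37, 11.67, 10.78 and 11.41 CPM in Control input and 34.04, 38.74, 33.43 and 33.29 CPM in Control IP. Each animal had 2.92 to 3.32 times more in its IP, and the groups did not overlap. The gene rose 2.94-fold (log2 1.56, SE 0.0607, edgeR adjusted p = 7.53e-10). Neuron input was at 19.16, 19.71, 21.03 and 17.69 CPM and neuron IP at 18.67, 17.9, 20.29 and 17.48 CPM. These overlapped almost fully, with a change of -0.07 (edgeR adjusted p = 0.35). All 4 pairs were lower in neuron IP, at 0.908 to 0.988 of their input. The difference between the 2 enrichments was -1.63 (SE 0.0934, edgeR interaction, adjusted p = 7.45e-11).

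In the SAPAP3 cohort *Adra1a* was at 15.2, 17.3, 19.88 and 21.09 CPM in WT input and 28.77, 26.54, 30.43 and 28.25 CPM in WT IP, and at 20.38, 18.79, 20.85 and 19.4 CPM in KO input and 31.09, 27.86, 28.76 and 25.95 CPM in KO IP. The IP was higher than the input in every library of both genotypes, by 1.51-fold in WT (log2 0.60, edgeR adjusted p = 4.88e-04) and 1.44-fold in KO (log2 0.52, edgeR adjusted p = 7.03e-05), neither of which reached the fold limit. The WT enrichment was below that of the Control cohort by 0.94 on the log2 scale (SE 0.115, edgeR interaction, adjusted p = 1.16e-04). The input level differed as well, as Control input was the lowest of the 10 groups for *Adra1a* and did not overlap with the next.

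*Adra1b* and *Adra1d* encode the other alpha-1 receptors, on chr11:43774605-43901250 and chr2:131545357-131562497 (both minus strand). Both were low in the Control cohort. *Adra1b* was at 3.934, 3.005, 2.642 and 3.26 CPM in Control input and 5.118, 7.626, 4.765 and 4.906 CPM in Control IP, with no overlap (1.67-fold higher, edgeR adjusted p = 0.00226). *Adra1d* was at 1.02, 0.8951, 1.229 and 0.9055 CPM in Control input and 1.737, 2.696, 1.819 and 2.028 CPM in Control IP, also with no overlap (1.94-fold higher, edgeR adjusted p = 6.58e-04). Both differences passed the adjusted p and stayed under the fold limit. Leaving out 1 library in turn took *Adra1d* to log2 fold changes of 0.817 to 1.07, and 3 of these 8 fits passed the limit.

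Both genes were at higher levels in the neuron cohort. *Adra1b* was at 11.5, 9.141, 9.846 and 10.28 CPM in neuron input and 15.73, 10.02, 13.84 and 12.14 CPM in neuron IP, and *Adra1d* was at 13.97, 6.648, 10.19 and 8.371 CPM in neuron input and 15.51, 7.745, 16.09 and 10.7 CPM in neuron IP. All 4 pairs were higher in the IP for both genes, by 1.1 to 1.41 times for *Adra1b* and 1.11 to 1.58 times for *Adra1d*. The groups overlapped, with log2 fold changes of 0.33 for *Adra1b* (edgeR adjusted p = 0.0426) and 0.34 for *Adra1d* (edgeR adjusted p = 0.265, and 0.00100 with the replicate number as a block). The enrichment minus that of the Control cohort was -0.41 for *Adra1b* (edgeR interaction, adjusted p = 0.129) and -0.61 for *Adra1d* (edgeR interaction, adjusted p = 0.189). With the animal or replicate number as a block both differences passed, at adjusted p = 0.0232 for *Adra1b* and 0.0114 for *Adra1d*.

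In SAPAP3 WT mice, mouse 1 stood apart from the other 3 in the input. *Adra1d* was at 0.7386, 11.9, 10.36 and 8.954 CPM in WT input and 1.514, 2.791, 3.631 and 3.759 CPM in WT IP, so that mouse 1 went up 2.05 times in its IP and the other mice went down. The change over all 4 mice was -1.49 (SE 0.602, 2.81-fold lower, edgeR adjusted p = 0.0501) and was not called. With the animal as a replicate block it was -1.29 (edgeR adjusted p = 0.00752), and without both libraries of mouse 1, an alternative chosen after seeing the data, it was -1.61 (edgeR adjusted p = 9.56e-05). In KO mice *Adra1d* was at 9.455, 9.509, 12.58 and 10.1 CPM in input and 4.337, 3.693, 2.146 and 4.729 CPM in IP. It fell by 1.48 on the log2 scale in KO IP (SE 0.206, 2.78-fold, edgeR adjusted p = 7.18e-05), in all 4 mice.

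*Adra1b* followed the same layout of libraries. It was at 2.721, 10.29, 11.35 and 10.96 CPM in WT input and 6.192, 7.077, 6.043 and 7.726 CPM in WT IP (log2 -0.42, edgeR adjusted p = 0.294). WT mouse 1 rose 2.28 times in its IP, and the other WT mice fell to 0.532 to 0.705 of their input. Leaving out 1 library in turn gave WT values of -0.708 to -0.275 (edgeR adjusted p from 4.1e-04 to 0.531). In KO mice *Adra1b* was at 13.33, 10.55, 12.73 and 11.76 CPM in input and 9.745, 7.658, 5.848 and 8.368 CPM in IP (log2 -0.61, 1.52-fold lower, edgeR adjusted p = 0.0027). KO input and IP did not overlap, and the difference stayed under the fold limit. Set against the Control cohort, the WT enrichment of *Adra1d* was lower by 2.43 on the log2 scale (SE 0.729, edgeR interaction, adjusted p = 0.0284), a difference that 8 of 16 fits without 1 library did not call. For *Adra1b* the same difference was -1.14 (edgeR interaction, adjusted p = 0.0668), with adjusted p = 0.0451 with the replicate block and 5.57e-04 without mouse 1.

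*Adra2c*, the alpha-2C receptor (chr5:35278566-35281763, plus strand, 1 exon), was depleted in the IP wherever astrocyte markers rose. It was at 109.3, 117.6, 115.3 and 107.5 CPM in Control input and 30.71, 28.44, 28.25 and 29.71 CPM in Control IP. Each animal kept 0.242 to 0.281 of its input level, and *Adra2c* fell by 2.01 on the log2 scale (SE 0.0444, 4.03-fold, edgeR adjusted p = 1.12e-11). Neuron input held 41.07, 48.1, 37.32 and 38.67 CPM and neuron IP 45.94, 52.98, 43.72 and 44.92 CPM. All 4 pairs were higher in neuron IP, by 1.1 to 1.17 times, while the groups overlapped (log2 0.17, edgeR adjusted p = 0.104, and 2.96e-04 with the replicate block). Without TMM this value was -0.0333. The difference between the enrichments was 2.18 (SE 0.101, edgeR interaction, adjusted p = 5.05e-12).

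In WT mice of the SAPAP3 cohort *Adra2c* was at 88.51, 53.48, 51.98 and 51.81 CPM in input and 33.47, 20.31, 22.57 and 24.95 CPM in IP, and in KO mice at 59.16, 47.58, 50.91 and 53.81 CPM in input and 26.96, 18.47, 18.51 and 21.46 CPM in IP. Mouse 1 of the WT group had the highest level in both fractions. *Adra2c* fell in both genotypes, 2.49-fold in WT (log2 -1.32, SE 0.219, edgeR adjusted p = 5.20e-04) and 2.47-fold in KO (log2 -1.30, SE 0.121, edgeR adjusted p = 3.59e-06). The WT fall was smaller than that in the Control cohort by 0.71 on the log2 scale (edgeR interaction, adjusted p = 0.0457), and in 13 of 16 fits without 1 library this difference was not called (0.542 to 0.961).

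*Adra2a*, the alpha-2A receptor (chr19:54045259-54048982, plus strand, 1 exon), was at 4.444, 5.019, 4.423 and 4.564 CPM in Control input and 7.156, 10.64, 7.205 and 9.136 CPM in Control IP. The groups did not overlap and the level was 1.76-fold higher (log2 0.82, SE 0.132, edgeR adjusted p = 1.44e-04), under the fold limit. In the neuron cohort it was at 9.457, 9.839, 12.32 and 11.99 CPM in input and 9.83, 9.055, 10.95 and 10.72 CPM in IP (log2 -0.12, edgeR adjusted p = 0.321). The difference between these enrichments was -0.93 (SE 0.175, edgeR interaction, adjusted p = 1.43e-04). The 2 alpha-2 members therefore had interaction terms of opposite sign, positive for *Adra2c* and negative for *Adra2a*.

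In SAPAP3 WT mice *Adra2a* was at 4.159, 9.334, 8.653 and 11.53 CPM in input and 5.83, 9.445, 12.03 and 11.14 CPM in IP (log2 0.15, edgeR adjusted p = 0.664). In KO mice it was at 12.44, 12.09, 12.21 and 14.18 CPM in input and 10.27, 9.341, 10.38 and 11.4 CPM in IP (log2 -0.29, edgeR adjusted p = 0.0115). *Adra2b*, the third alpha-2 receptor gene, fell in Control IP by 1.91 on the log2 scale (SE 0.153, edgeR adjusted p = 3.75e-07), in SAPAP3 WT IP by 1.36 (edgeR adjusted p = 0.00181) and in KO IP by 1.13 (edgeR adjusted p = 0.00115). In neuron IP its value was 0.37 (edgeR adjusted p = 0.0192), under the fold limit.

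*Adrb1*, the beta-1 receptor (chr19:56722117-56725150, plus strand, 1 exon), varied least of the 8 over the 10 group means, by 0.711 on the log2 scale. It was at 22.91, 24.42, 24.7 and 22.82 CPM in Control input and 17.53, 19.31, 18.19 and 20.13 CPM in Control IP. The difference was small and without overlap (1.32-fold lower, log2 -0.41, SE 0.056, edgeR adjusted p = 3.98e-05). In the neuron cohort *Adrb1* was at 24.38, 23.1, 24.59 and 23.79 CPM in input and 23.77, 22.34, 27.31 and 25.39 CPM in IP (log2 0.03, edgeR adjusted p = 0.659, and -0.175 without TMM). The enrichments differed by 0.44 (SE 0.0843, edgeR interaction, adjusted p = 1.96e-04).

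In the SAPAP3 cohort *Adrb1* was at 20.02, 24.52, 22.22 and 22.4 CPM in WT input and 16.18, 14.73, 16.5 and 15.68 CPM in WT IP, and at 20.54, 21.11, 22.77 and 23.17 CPM in KO input and 16.15, 15.13, 13.6 and 14.64 CPM in KO IP. Input and IP did not overlap in either genotype, with changes of -0.54 in WT (edgeR adjusted p = 2.18e-04) and -0.55 in KO (edgeR adjusted p = 5.80e-05), under the fold limit.

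**Figure D2:**
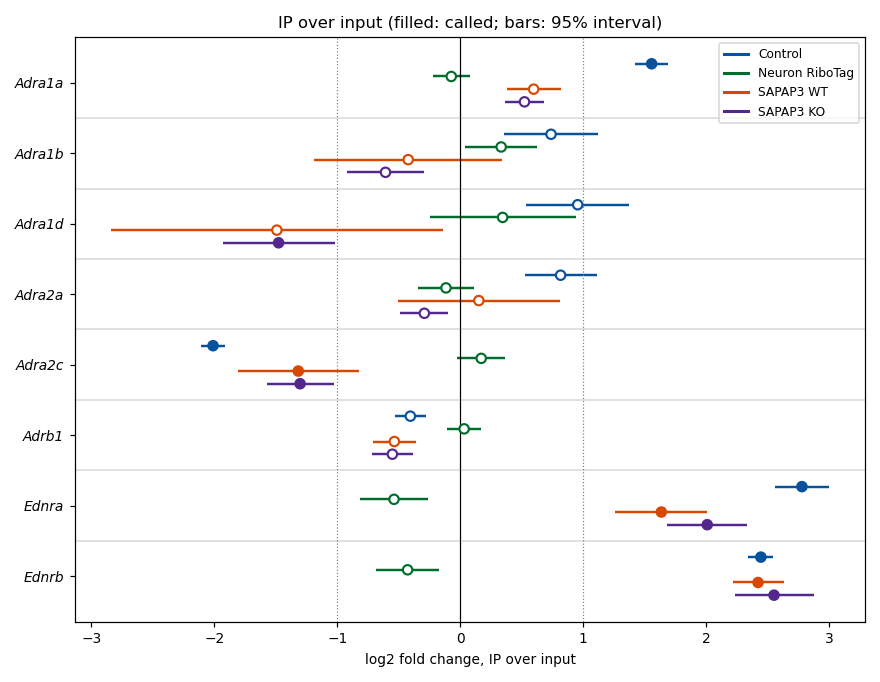
log2 fold change of IP over input (x axis) of the 8 receptor genes in 4 IP comparisons, with 95% intervals from edgeR as lines, dotted lines at the fold limit and filled points for called genes. *Ednrb* and *Ednra* lie to the right and *Adra2c* to the left in Control, SAPAP3 WT and SAPAP3 KO IP, whereas all 8 neuron IP points are open.

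Counted together, 3 of the 8 members were called higher in Control IP (*Adra1a*, *Ednra* and *Ednrb*), where 13.4% of the 15476 genes tested were called higher, and 1 was called lower (*Adra2c*), against 13.5%. In neuron IP 0 were called in either direction, against 0.42% of genes called higher and 15.8% called lower. The adjusted p alone (edgeR) was passed by 3 members (*Adra1b*, *Ednra* and *Ednrb*), against 11557 of the 16198 genes tested. With the replicate block 5 members passed it, with *Adra1d* and *Adra2c* added, and the count over all genes with the block is not given here. DESeq2 and limma-voom called none in neuron IP either. In SAPAP3 WT IP 2 were called higher, against 10.9% of genes, and 1 lower, against 12.1%. In KO IP 2 were called higher, against 12.3%, and 2 lower, against 11.5%. The median log2 fold change of the 8 was 0.885 in Control IP, -0.0207 in neuron IP, -0.136 in SAPAP3 WT IP and -0.422 in KO IP, while the medians over all genes tested lay between -0.0315 and -0.0023.

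The enrichment differed between the neuron and Control cohorts for 6 of the 8 members, in a comparison that called 70.1% of 16371 genes. *Adra1a*, *Adra2a*, *Ednra* and *Ednrb* were more enriched in Control IP and *Adra2c* and *Adrb1* in neuron IP. Between SAPAP3 WT and Control it differed for 4 of the 8, against 20.5% of 16032 genes. Both comparisons share the Control libraries. The summed astrocyte markers were 5580 to 7050 CPM in SAPAP3 WT input and 24700 to 34800 CPM in its IP, a smaller rise than in the Control cohort, and the oligodendrocyte markers, 5610 to 6550 CPM in that input, were 7980 to 11700 CPM in the IP. The part of these differences in the receptor values was not tested, and strain, age and cohort cannot be told apart.

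**Figure D3:**
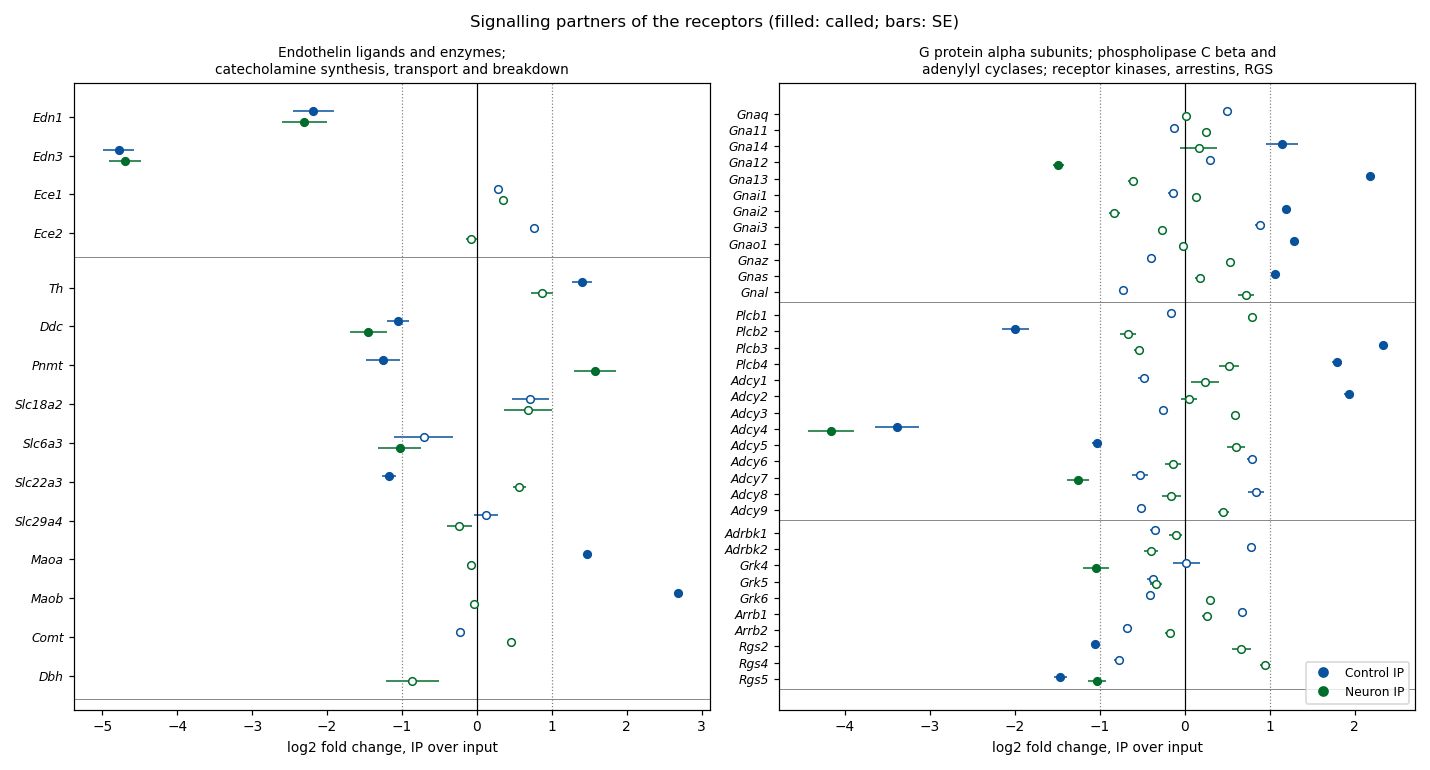
log2 fold change of IP over input (x axis) for genes around the receptors in Control IP and neuron IP, with 1 point per tested gene, SE as bars, and filled points for called genes. *Edn1*, *Edn3* and *Adcy4* lie far to the left in both, and *Maob*, *Plcb3* and *Gna13* to the right in Control IP, each above 2.

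The partners of the receptors were taken from lists of ligands, enzymes and transducers. Counts of called partners stand against all genes tested. Of these, 13.4% were called higher and 13.5% lower in Control IP, and 0.42% higher and 15.8% lower in neuron IP. Of the endothelin ligands and converting enzymes, 4 were tested in Control IP: *Edn1* fell by 2.19 (edgeR adjusted p = 1.69e-05) and *Edn3* by 4.78 (edgeR adjusted p = 1.60e-09) on the log2 scale, while the enzyme genes *Ece1* (0.28) and *Ece2* (0.77) were under the fold limit. The same ligand genes fell in neuron IP, with log2 fold changes of -2.30 for *Edn1* and -4.70 for *Edn3*, so that the ligands went down in both IP types and the receptors up in Control IP. In SAPAP3 WT and KO IP, *Ece2* was called higher (1.01 and 1.02) and *Edn1* and *Edn3* lower. The medians of the list were -0.952 in Control IP and -1.19 in neuron IP.

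Among the genes of catecholamine synthesis, transport and breakdown, 3 of 10 were called higher in Control IP (13.4% of all genes) and 3 lower (13.5%). *Maob* (2.68) and *Maoa* (1.46), the monoamine oxidases that break down noradrenaline, rose together with *Th* (1.397), the rate-limiting enzyme of catecholamine synthesis. *Pnmt* (-1.25), which makes adrenaline, *Ddc* (-1.05), the decarboxylase that makes dopamine, and the transporter gene *Slc22a3* (-1.17) fell. In neuron IP 1 of 11 was called higher (*Pnmt*, 1.57) and 2 lower (*Ddc* and *Slc6a3*, the dopamine transporter gene), against 0.42% and 15.8% of all genes. *Th* was also higher in neuron IP (0.87, edgeR adjusted p = 4.5e-04), under the fold limit. *Maob* (-0.04) and *Maoa* (-0.08) did not pass the adjusted p there. The list medians were -0.0511 in Control IP and -0.0386 in neuron IP. In the SAPAP3 cohort *Maoa*, *Maob*, *Th* and *Slc18a2* rose and *Pnmt* fell in both genotypes.

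Of 12 G protein alpha subunits 5 were called higher in Control IP (13.4% of all genes) and none lower (13.5%). The 5 were *Gna13* (2.18), *Gnao1* (1.28), *Gnai2* (1.19), *Gna14* (1.14) and *Gnas* (1.06). *Gnai2* and *Gnao1* encode subunits of the Gi/o class, *Gnas* the Gs subunit and *Gna14* one of the Gq class, whereas *Gnaq* and *Gna11*, its widely expressed genes, were under the fold limit. All 12 passed the adjusted p (edgeR), against 12448 of the 15476 genes tested in Control IP. Among the 12 were *Gnal* (-0.72), the Gs-like subunit of striatal neurons, and *Gnaz* (-0.40), which were lower in Control IP within the fold limit. In neuron IP *Gna12* was called lower (-1.49) and no subunit higher, while *Gnal* (0.72) and *Gnaz* (0.53) passed the adjusted p within the fold limit. Of 13 phospholipase C beta and adenylyl cyclase genes, *Plcb3* (2.33), *Adcy2* (1.94) and *Plcb4* (1.79) rose in Control IP and *Adcy4* (-3.39), *Plcb2* (-1.996) and *Adcy5* (-1.03) fell, while in neuron IP *Adcy4* (-4.16) and *Adcy7* (-1.25) fell. Of 10 receptor kinases, arrestins and RGS proteins, which end receptor signals, 0 were called higher in Control IP and *Rgs5* (-1.46) and *Rgs2* (-1.05) were called lower. The highest value was 0.777, and 9 of the 10 passed the adjusted p (edgeR), to be read beside the 12448 of 15476 genes above. In neuron IP *Grk4* (-1.05) and *Rgs5* (-1.03) were called lower. List medians in Control IP were 0.696 for the G protein subunits, -0.259 for the phospholipases and cyclases and -0.392 for the kinases, arrestins and RGS proteins.

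KO was compared with WT in input, in IP and in bulk tissue, which asks whether loss of SAPAP3 went with another receptor level. None of the 8 members was called in any of the 3 (edgeR), where 0.00641% of 15591 genes, 0.0263% of 15198 genes and 0% of 16020 genes were called. The genes called numbered 1 in input, 4 in IP and 0 in bulk, against 869, 399 and 792 genes at an unadjusted p under 0.05, and DESeq2 called 8, 8 and 18, with no member among them. In bulk even *Dlgap3*, the deleted gene, which was 2.21-fold lower without overlap, had an edgeR adjusted p = 0.318, so the lack of calls there says little. The adjusted p of the members lay between 0.735 and 0.952 in input, at 0.999 in IP and between 0.984 and 0.995 in bulk (edgeR).

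**Figure D4:**
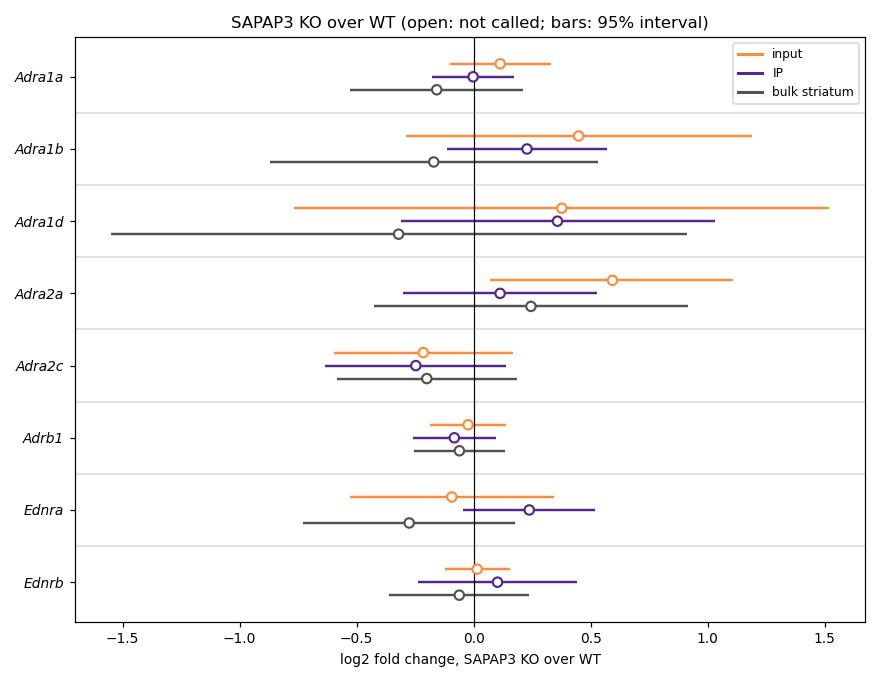
log2 fold change of SAPAP3 KO over WT (x axis) of the 8 receptor genes in input, IP and bulk tissue, with 95% intervals from edgeR as lines. All points are open (not called), and the intervals are narrow for *Adrb1* and wide for *Adra1d*.

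The intervals show how much of a change these data leave room for. For *Ednrb* the log2 fold change of KO over WT was 0.02 in input (95% interval -0.12 to 0.15), 0.10 in IP (-0.24 to 0.44) and -0.06 in bulk (-0.36 to 0.24). For *Ednra* it was -0.09 in input (-0.53 to 0.34), 0.24 in IP (-0.04 to 0.52) and -0.28 in bulk (-0.73 to 0.18). For *Adra1a* it was 0.11 in input (-0.10 to 0.33), -0.00 in IP (-0.18 to 0.17) and -0.16 in bulk (-0.53 to 0.21). The intervals of these 3 genes exclude a doubling in KO. Those of *Adra1d* in input (-0.77 to 1.52) and IP (-0.31 to 1.03), *Adra1b* in input (-0.29 to 1.19) and *Adra2a* in input (0.07 to 1.11) do not. In bulk *Adra1d* was at -0.32 (-1.55 to 0.91), which leaves room for a fall beyond -1.

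Among the remaining members, *Adra1b* was at 0.45 in input (-0.29 to 1.19), 0.23 in IP (-0.12 to 0.57) and -0.17 in bulk (-0.87 to 0.53). *Adra2c* was at -0.22 in input (-0.60 to 0.17), -0.25 in IP (-0.63 to 0.14) and -0.20 in bulk (-0.58 to 0.18). *Adrb1* was at -0.02 in input (-0.19 to 0.14), -0.08 in IP (-0.26 to 0.10) and -0.06 in bulk (-0.26 to 0.14). *Adra2c* and *Adrb1* were thus at or under 0 in each kind of RNA, with every interval crossing 0. *Adra2a* was at 4.159 to 11.53 CPM in WT input and 12.09 to 14.18 CPM in KO input, without overlap. The share of all genes whose input ranges did not overlap was not counted. For *Adra2a* the value in input was 0.59 (95% interval 0.07 to 1.11, unadjusted p = 0.030, edgeR adjusted p = 0.735), with 0.11 in IP (-0.30 to 0.53) and 0.25 in bulk (-0.43 to 0.92). WT input 1 moved these input values: without it *Adra2a* was at 0.378, *Adra1b* at 0.16, *Adra1a* at 0.0379, *Adra1d* at 0.00929 and *Adra2c* at 0.018.

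In the bulk libraries *Adra1d* was at 12.7, 2.913, 2.963 and 16.88 CPM in WT and 9.903, 6.014, 7.394 and 5.151 CPM in KO, so that the WT group held both the lowest and the highest values. *Adra2c* was at 47.76, 72.81, 82.15 and 48.64 CPM in WT and 54.43, 57.33, 51.63 and 55.62 CPM in KO, with the same 2 WT libraries, mice 2 and 3, at the high end. *Ednrb* did not separate these libraries, at 81.98, 92.65, 74.8 and 68.54 CPM in WT and 62.39, 78.37, 70.23 and 93.99 CPM in KO. The enrichment in the IP was also compared between genotypes, and 0 members and 0 of 16059 genes were called (edgeR, 0%, with 203 genes at an unadjusted p under 0.05 and 1 gene called by DESeq2). Those differences ran from -0.48 for *Adra2a* to 0.34 for *Ednra*.

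**Figure D5:**
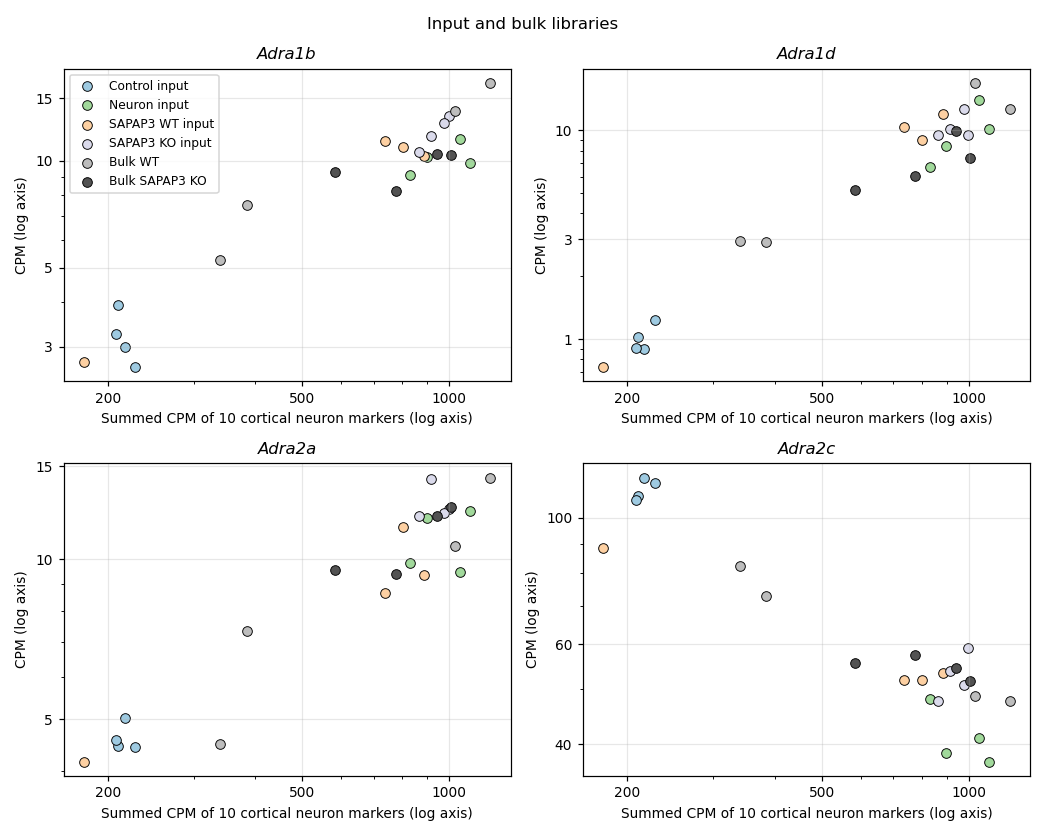
CPM of *Adra1b*, *Adra1d*, *Adra2a* and *Adra2c* (y axis, log) against the summed CPM of 10 cortical projection neuron markers (x axis, log) in the input and bulk libraries, with 1 point per library. The Control inputs, SAPAP3 WT input 1 and bulk WT 2 and 3 lie at the left, low in the first 3 genes and high in *Adra2c*.

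Markers of cortical projection neurons, a list chosen after seeing the data, moved with 4 of the adrenergic receptors over the libraries. Their sum was 209.9, 216.2, 227.6 and 207.9 CPM in Control input, 178.5 CPM in the input of SAPAP3 WT mouse 1, and 384.9 and 339.3 CPM in bulk WT 2 and 3. It was 885.7, 737.2 and 803.1 CPM in the other SAPAP3 WT inputs, 1213 and 1029 CPM in the other bulk WT libraries, 865.3 to 996.5 CPM in KO input, 832 to 1101 CPM in neuron input and 584.1 to 1006 CPM in bulk KO. The libraries with the low sums were those low in *Adra1b*, *Adra1d* and *Adra2a* and high in *Adra2c*. Among the 4 neuron inputs the sums of 1050, 832, 1101 and 898.8 CPM went with 13.97, 6.648, 10.19 and 8.371 CPM of *Adra1d*, so that input 3 had the highest sum and input 1 the highest *Adra1d*. With the log2 of this sum as a covariate, also chosen after seeing the data, KO over WT in input went from 0.45 to -0.0408 for *Adra1b*, from 0.38 to -0.354 for *Adra1d*, from 0.59 to 0.261 for *Adra2a* and from -0.22 to 0.0847 for *Adra2c*, none of them called. The share of cortex in the dissected tissue was not tested.

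Ordered by their mean level, the 8 genes fell into different patterns over the 10 groups. *Ednrb* stood highest in SAPAP3 KO IP (506 ± 113 CPM, SD, n = 4), SAPAP3 WT IP (473 ± 58.7 CPM, SD, n = 4) and Control IP (406 ± 24.4 CPM, SD, n = 4), whose ranges overlapped with their neighbours, and none of these overlapped with the next group, SAPAP3 KO input (86.7 ± 7.10 CPM, SD, n = 4). *Ednra* had the same 3 groups on top, at 9.83 ± 1.36, 9.05 ± 0.635 and 8.34 ± 1.18 CPM (SD, n = 4) in SAPAP3 KO, Control and SAPAP3 WT IP, also without overlap with the next. *Adra1a* was highest in Control IP (34.9 ± 2.60 CPM, SD, n = 4), apart from SAPAP3 WT IP and KO IP, which overlapped.

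The alpha-1B and alpha-1D genes had neuron IP at the top (12.9 ± 2.43 CPM for *Adra1b* and 12.5 ± 3.99 CPM for *Adra1d*, SD, n = 4) and Control input at the bottom (3.21 ± 0.545 and 1.01 ± 0.155 CPM, SD, n = 4), the latter not overlapping with the next group, Control IP. *Adra2a* had SAPAP3 KO input on top (12.7 ± 0.977 CPM, SD, n = 4), with each group overlapping the next down to Control input (4.61 ± 0.278 CPM, SD, n = 4). *Adra2c* was highest in Control input (112 ± 4.78 CPM, SD, n = 4), apart from bulk WT, and lowest in the 3 IP groups other than neuron IP, at 21.4 to 29.3 CPM. For *Adrb1*, the 8 groups from neuron IP to Control IP each overlapped with the next, and SAPAP3 WT IP (15.8 ± 0.774 CPM, SD, n = 4) and KO IP (14.9 ± 1.06 CPM, SD, n = 4) lay below them.

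For each member, genes with the most similar pattern were named by the mean absolute difference of centred log2 group means, over 10 groups and 14006 candidate genes. Closest to *Ednrb* were *Slc1a3*, the astrocyte glutamate transporter GLAST (0.0907), and *Abhd4*. Closest to *Ednra* were *Abca1*, a cholesterol exporter (0.0928), *Sh3pxd2b* and *4931406C07Rik*, and to *Adra1a* *Lrrc75a* (0.0866), *Metrnl* and *Ckap4*. *Adra1b* was closest to *Sstr1*, a somatostatin receptor gene (0.0958), *Serpini1* and *St8sia5*, and *Adra1d* to *Medag* (0.0699), *Sidt1* and *Prdm8*. *Adra2a* was closest to *Ccbe1* (0.0735), *Dscam* and *Nrip3*, *Adra2c* to *Trnp1* (0.107), *Fbxl16* and *Gpr52*, and *Adrb1* to *Lrfn3* (0.0458), *2010015L04Rik* and *Acd*. The range of the group means that these distances stand against was 2.95 for *Ednrb*, 2.55 for *Ednra*, 3.05 for *Adra1d* and 0.711 for *Adrb1* on the log2 scale.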

How the data were processed

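The series holds RNA-seq of mouse striatum in 40 libraries. The authors aligned reads to mm10 with STAR, and HTSeq is named in the submitters' processing notes. The deposited table holds raw read counts for 24060 rows named by gene symbol (2 symbols appear more than once). The strand setting and the handling of multiply aligned reads are not given in the sources used here, and labels and methods name different kits and sequencers.

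From the deposited counts, TMM-scaled CPM were computed over all libraries, and FPKM with merged RefSeq exon lengths of GRCm38.p6. Tests used edgeR 4.0.16 in R 4.3.3 (glmQLFit and glmQLFTest after filterByExpr and TMM) on the compared groups, with Benjamini-Hochberg adjustment over all genes tested. IP against input was called at an adjusted p under 0.05 and a log2 fold change above 1 or below -1, and genotypes and interaction terms at an adjusted p under 0.05. A self-test on simulated counts was run for the scripts. P-values set the difference between groups against the spread between these libraries. The fits had no term for the animal except where a replicate block is named. Intervals are 95% intervals of the fit.

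Alternatives were DESeq2 1.42.0, limma-voom (limma 3.58.1), no TMM, no filter, FPKM above 5 in at least 4 libraries, wider sets of groups, an *Xist* covariate, a replicate block and leaving out each library. IP and input are paired by animal in the Control and SAPAP3 cohorts and by title number in the neuron cohort, whose labels give them different animals. Among genes averaging 5 CPM or more, deviations from the group means of same-numbered libraries correlated at 0.261 or more, and each library correlated best with its own number.

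The members and gene lists were chosen with earlier results of these data known. The genes named are the members, *Adra2b*, called genes of the partner lists and, of the 3 genes closest to each member among those with a mean CPM of at least 1 (pseudocount 0.5), those given in the text. Some results under this rule are not reported here. Cortical markers, the covariate from them and leaving out WT mouse 1 were added after seeing the data.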

Additional observations from a re-analysis of the deposited data

Results flagged for a closer look

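In 5 of 80 groups of 4 libraries, 1 library stood farther from the others than Dixon's limit, which chance gives in about 1 of 20 groups. They were *Adra1a* in Control IP 2 (38.74 CPM, others 33.29 to 34.04), *Adra1b* in Control IP 2 (7.626 CPM, others 4.765 to 5.118), *Adra1b* in SAPAP3 WT input 1 (2.721 CPM, others 10.29 to 11.35), *Adra2c* in SAPAP3 WT input 1 (88.51 CPM, others 51.81 to 53.48) and *Adra2a* in SAPAP3 KO input 4 (14.18 CPM, others 12.09 to 12.44).

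The IP enrichment differed between cohorts by an edgeR interaction term for 10 values. Neuron minus Control, the differences were -1.63 for *Adra1a*, -0.93 for *Adra2a*, 2.18 for *Adra2c*, 0.44 for *Adrb1*, -3.32 for *Ednra* and -2.87 for *Ednrb*. SAPAP3 WT minus Control, they were -0.94 for *Adra1a*, -2.43 for *Adra1d*, 0.71 for *Adra2c* and -1.12 for *Ednra*.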

How the results depend on the processing

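The calls of *Adra1a*, *Ednra* and *Ednrb* as higher and of *Adra2c* as lower in Control IP held in every alternative in which each was tested. Without TMM the median over all genes tested shifted by about -0.2 (to -0.246 in Control, -0.208 in neuron, -0.203 in SAPAP3 WT and -0.208 in KO IP), and the share of calls that were higher went from 49.8% to 37.2% in Control IP, 47.4% to 36.4% in SAPAP3 WT IP and 51.6% to 38.8% in KO IP (59.0%, 64.7% and 66% with FPKM above 5). In neuron IP the values of *Adra2c* became -0.0333 without TMM and -0.0141 with FPKM above 5, and those of *Adrb1* -0.175 and -0.154. *Adra2a* in SAPAP3 WT IP became -0.0221 without TMM. KO over WT of *Ednrb* in input became -0.0137 without TMM and -0.00119 with FPKM above 5. The SAPAP3 WT minus Control difference of *Ednrb* became 0.0254 without TMM and 0.0766 without WT mouse 1.

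FPKM above 5 left fewer genes to test, and 1702, 508, 1270 and 1422 genes were called in Control, neuron, SAPAP3 WT and KO IP (4157, 2635, 3590 and 3713 otherwise), 7169 for neuron minus Control (11469 otherwise) and 2 for KO over WT in IP. Of the members 1 was then called higher in each of the 3 IP groups other than neuron IP, 1 lower in KO IP, 1 lower for neuron minus Control and 0 lower for SAPAP3 WT minus Control, and some members were not tested.

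With the replicate block, SAPAP3 WT minus Control called 4980 genes in place of 3280 and 5 members lower in place of 3, among them *Adra1b* and *Adra2a* (-1.04 and -0.608). *Adra1d* in SAPAP3 WT IP was called lower with the block (-1.29), without TMM (-1.66), with all 4 groups of the cohort (-1.45) and without WT mouse 1 (-1.61), which makes 2 members lower. Neuron minus Control of *Adra1b* was -0.416 and of *Adra1d* -0.618 with the block, and both were called. *Adra1d* for SAPAP3 WT minus Control was -2.05 with limma-voom and not called, *Adra1b* was called with DESeq2 (-1.16), and without WT mouse 1 *Adra1b* (-1.39) and *Adra2a* (-0.68) were called, making 5 lower. Without WT mouse 1, 2332 genes were called lower and 2146 higher of 16148 tested. With all libraries these were 1809 and 1471 of 16032.

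KO over WT called no member in any alternative. DESeq2 called 8, 8 and 18 genes in input, IP and bulk and 1 for the difference of enrichments, all 4 groups together 3 genes in input, and the cortical covariate 2 genes in IP. The cortical covariate gave -0.0408 (*Adra1b*), -0.354 (*Adra1d*) and 0.0847 (*Adra2c*) in input and 0.0125 (*Adra1a*), -0.0542 (*Adra1d*) and -0.0317 (*Adra2a*) in IP. All 4 groups gave 0.00212 for *Adra1a* in IP, limma-voom 0.0241 for *Adra1d* in bulk, and leaving out the animal listed in both genotypes 0.0676 (*Adra1b*) and 0.0345 (*Ednrb*) in bulk. Without WT mouse 1 the KO minus WT difference of enrichments was 0.0344 (*Adra1b*), 0.136 (*Adra1d*) and 0.00583 (*Adrb1*). The cause of these changes was not tested.

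Leaving out each library in turn changed sides or direction for some values, given as ranges, and without SAPAP3 WT input 1 KO over WT in input went from 0.593 to 0.378 (*Adra2a*), 0.449 to 0.16 (*Adra1b*) and 0.377 to 0.00929 (*Adra1d*). IP over input ran from 0.817 to 1.07 (*Adra1d*, Control), -0.00958 to 0.0817 (*Adrb1*, neuron), -0.059 to 0.334 (*Adra2a*, SAPAP3 WT) and -1.86 to -1.23 (*Adra1d*, SAPAP3 WT, with 1 to 2 members called lower). KO over WT ran in input from -0.294 to 0.018 (*Adra2c*), -0.0673 to 0.0249 (*Adrb1*), -0.208 to 0.055 (*Ednra*) and -0.0256 to 0.0651 (*Ednrb*), in IP from -0.0491 to 0.0376 (*Adra1a*), -0.061 to 0.235 (*Adra2a*) and -0.0359 to 0.225 (*Ednrb*), and in bulk from -0.393 to 0.112 (*Adra1b*), -0.613 to 0.194 (*Adra1d*), -0.106 to 0.0164 (*Adrb1*) and -0.177 to 0.0234 (*Ednrb*), with 0 to 1 genes called in input, 0 to 3 in IP and 0 to 1 in bulk. SAPAP3 WT minus Control ran from -1.43 to -0.96 (*Adra1b*), -2.79 to -2.17 (*Adra1d*), -0.855 to -0.467 (*Adra2a*), 0.542 to 0.961 (*Adra2c*) and -0.105 to 0.0723 (*Ednrb*), with 0 to 1 members called higher and 2 to 5 lower. KO minus WT ran from -0.356 to 0.0715 (*Adra1b*), -0.267 to 0.353 (*Adra1d*), -0.26 to 0.134 (*Adra2c*) and -0.0478 to 0.213 (*Ednrb*). Depth limits *Adra1d* and *Ednra* most, which had 25 to 40 and 35 to 39 counts in the Control input libraries.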
